A study of Mus musculus and Bos taurus with 2 samples.

Results

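Of 40819 long-read transcript models from cleavage-stage bovine embryos (8C to 16C), 4255 (10.4%, 95% interval 10.1 to 10.7) are described here. They were spliced, lay between annotated genes and started away from opposite-strand gene starts found in the same library. The choice used 3 conditions. The model carried class code u, which marks a model that overlaps no reference transcript, it had at least 2 exons, and its 5' end lay more than 1000 bp from the 5' end of every exact match on the opposite strand of the same chromosome. Positions are given on bosTau9. An exact match is a model with the same intron chain as a reference transcript, and its gene is called a gene here. Of 4846 models with class code u, 4380 had 2 or more exons, and 125 of those (2.85%) fell within the distance and were left out. Of the members, 36 lay on sequences that held no exact match on the opposite strand, so the distance could not remove them. Class code, exon number and distance chose the members, so these values describe them and test nothing.

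The series holds 82847 models from 2 libraries, 1 per species. The bovine library came from about 200 in vitro produced embryos, from in vitro matured oocytes of Japanese Black cattle or Japanese Black × Holstein F1 cattle, inseminated with sperm of a Japanese Black bull and collected 72 h later. The mouse library came from about 200 late 2-cell embryos, made from superovulated Slc:ICR oocytes fertilized in vitro and cultured in KSOM to 36 h. Both carry batch 1 in the labels, and total RNA was turned into cDNA, amplified with 14 PCR cycles and read as long molecules on a nanopore sequencer. With 1 library per species there is no replicate error and no test. Intervals are exact Clopper-Pearson 95% intervals that cover counting error only, and they treat models as independent although models of 1 locus share their source. The files hold positions without read support, so depth is unknown and nothing here is an amount of RNA. The library held exact matches for 25 of 34 listed genes of the oocyte, such as ZP3 and OOEP, and for 10 of 26 listed lineage genes, NANOG and SALL4 among them. For the lists of activation and of silencing of repeats and DNA methylation, the counts were 6 of 20 and 23 of 40. The share over all annotated genes was not computed here, so these counts are descriptions.

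Transcription of the embryo's own genome begins in cattle at about these cleavage stages, while RNA stored in the oocyte is degraded. Transcripts outside annotated genes at this time can come from unannotated genes, from long noncoding RNA genes and from interspersed repeats, and long reads show which exons one molecule joins. No repeat annotation and no bovine sequence were used here, so the members are described by their exons, positions and neighbours.

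The members were short chains of few exons. Of the 4255, 2104 (49.4%, interval 47.9 to 51.0) had 2 exons, 1311 (30.8%) had 3 and 533 (12.5%) had 4. The spliced exact matches of the same library had a different profile: 5.46% of 14092 had 2 exons, and 43.6% had 10 or more, a class that held 10 members (0.235%). The 125 left-out models near a promoter were shorter still, with 2 exons in 70.4% of cases (interval 61.6 to 78.2). Mouse models chosen by the same rule (3344 of 42028, at 2210 loci) were close to the bovine members, with 2 exons in 52.7%.

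**Figure D1:**
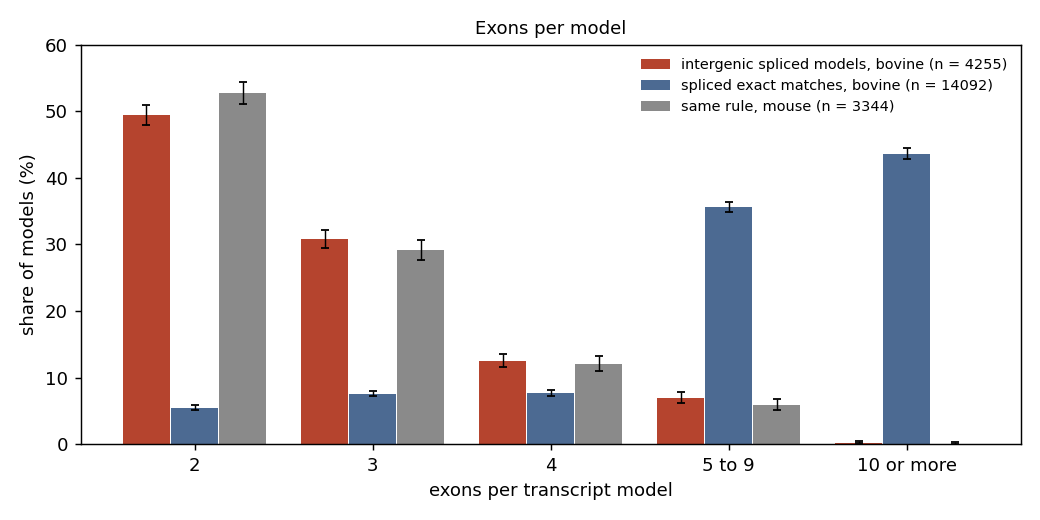
Share of models (%) by exons per model for the 4255 bovine intergenic spliced models, the 14092 bovine spliced exact matches and the 3344 mouse models of the same rule, with exact 95% intervals as bars. Bovine and mouse intergenic models fall from 49.4% and 52.7% at 2 exons to under 1% at 10 or more, where the exact matches reach 43.6%.

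The median member had a spliced length of 1081 bp (interval of the median 1053 to 1117) and spanned 7492 bp of genome. Exact matches had medians of 2080 bp spliced and 20778 bp spanned. Single introns of members were longer than those of genes: the median over 6307 distinct introns was 2458 bp, against 1359 bp over 74096 introns of exact matches. The shorter span of a member thus came with fewer introns, not with shorter ones. First exons were also longer, with a median of 219 bp against 159 bp in exact matches and 148 bp in the mouse models. Other bovine models were closer to the members: the left-out models near a promoter had 213 bp (interval 185 to 284), and models with the sense class code j had 201 bp. Internal exons of members had a median of 126 bp against 117 bp in exact matches. The shortest intron of a member measured 43 bp and the longest 99551 bp.

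First exons showed no dominant length. The most frequent one, 157 bp, was carried by 34 members (0.799%) at 20 loci. In the mouse models of the same rule, 1 length, 115 bp, was carried by 225 of 3344 models (6.73%, interval 5.90 to 7.63) at 130 loci. Among bovine exact matches the most frequent first exon length, 137 bp, was carried by 111 of 14092 models (0.788%), so the bovine members lay near the share of annotated genes.

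The 4255 members belonged to 2736 loci by the deposited locus attribute, 34 of them on unplaced sequences. A single member made up 1955 loci (71.5%), 412 loci held 2, 177 held 3 and 192 held 4 or more. Members of a locus shared their start more often than their end. Of 781 loci with several members, 589 (75.4%, interval 72.2 to 78.4) had exactly 1 distinct 5' end and 374 (47.9%) exactly 1 distinct 3' end. Gene loci had the opposite order: of 7585 with several spliced sense models, 20.2% had 1 start and 28.9% had 1 end. Among loci of exactly 2 models, 79.4% of 412 member loci had 1 start and 59.5% had 1 end, against 31.8% and 41.1% of 2966 gene loci. Only 29 member loci (1.06%) also held an exact match.

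The loci with most members mostly had 1 start and several ends. Of the 12 loci with 8 to 10 members, 10 had a single start and 7 of those had 3 or more ends. More ends than starts were found at 9 of the 12, equal numbers at 2 and more starts than ends at 1, chr7:13566887-13589207, with 3 starts and 1 end. At chr6:53872640-53902499 on the plus strand, 9 models left the same 87 bp first exon and stopped at 5 ends up to the far end of the locus, 1541 kb from the nearest gene, ARAP2. At chr6:47545989-47587170 on the minus strand, 9 models shared a first exon of 329 bp and used 7 ends, 1372 kb from TBC1D19. At chr12:45454069-45520674 on the minus strand, 9 models shared a first exon of 211 bp and used 3 ends, 1941 kb from MZT1. The others were chr23:28523751-28528137, chr5:51951766-51960526, chr11:12732931-12744655, chr12:34735818-34781219, chr17:29140598-29243062, chr19:18292214-18313278, chr21:49485913-49587665 and chr4:64024570-64057449. Of these, the last lay 6 kb from LSM5, which encodes a subunit of the Lsm ring that binds U6 RNA.

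Most members lay far from any gene with an exact match. The median distance was 153 kb (interval 142 to 164), 443 of 4228 members on sequences with a gene (10.5%) lay within 10 kb, and 1051 (24.9%) lay over 500 kb away. This distance depends on what counts as a gene: against all models with a sense class code the median was 74.6 kb. In mouse the same rule gave a median of 68.3 kb against exact matches. The members farthest from a gene were at chr20:50354558-50390065, 5519 kb from BASP1, and at chr12:60117580-60118754, 4770 kb from SPRY2, followed by loci at chr6:50687358-50741335, chr12:61291663-61312994 and chr4:1099350-1108146, all over 4000 kb away. At the threshold of the rule, the closest members lay 1013 bp from the start of FBXO11, 1073 bp from TRIB1 and 1109 bp from PPP2R5A. Just outside it were 2 models 958 bp from UXS1 and 1 model 953 bp from IBTK.

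The side of the nearest gene was uneven. Beyond 10 kb, the nearest gene lay on the same strand and before the 5' end of the member in 30.6% of 3785 members (interval 29.1 to 32.1), and on the same strand after its 3' end in 20.2% (18.9 to 21.5). Genes on the opposite strand made up 24.3% before and 24.9% after the member. With 1 model per locus the same-strand shares were 29.8% and 20.8% of 2404, the same order as over all members. Within 10 kb both same-strand sides were near each other, at 28.0% and 28.2% of 443. Between 50 and 100 kb they were 32.4% and 19.1% of 550, and over 500 kb they were 29.8% and 17.8% of 1051. Members with a same-strand gene end at most 10 kb upstream numbered 135 (3.17%), and 135 had a same-strand gene start at most 10 kb downstream.

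**Figure D2:**
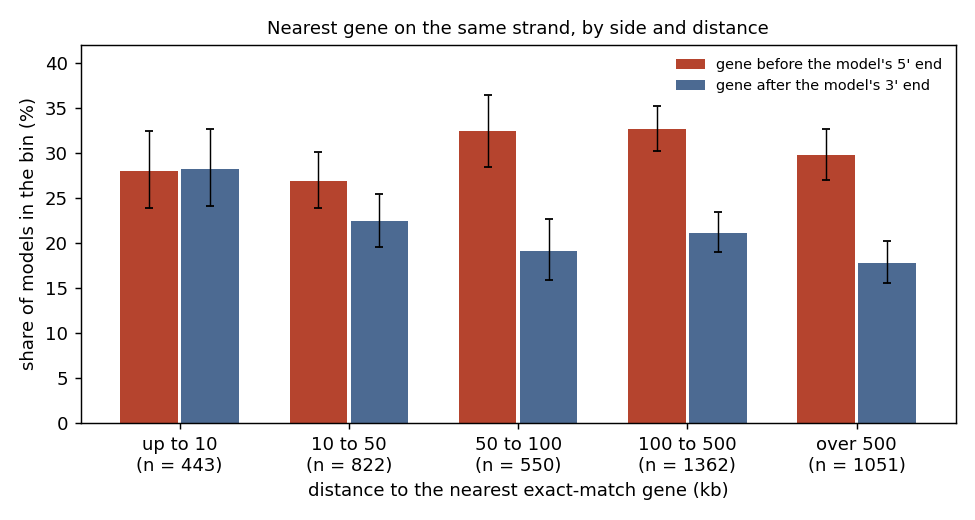
Share of bovine intergenic spliced models (%) whose nearest gene lies on the same strand, before the 5' end or after the 3' end, by distance to that gene in kb, with exact 95% intervals. The shares are 28.0% and 28.2% up to 10 kb and separate beyond 50 kb, to 32.4% and 19.1% between 50 and 100 kb.

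Spliced length varied little with distance from genes, and the share with 2 exons was highest within 10 kb. Members with 2 exons made up 56.0% within 10 kb, 47.0% between 10 and 50 kb and 51.5% between 50 and 100 kb. Their share was 47.9% between 100 and 500 kb and 49.6% beyond 500 kb. Median spliced length was 1063 bp within 10 kb and 1038 bp beyond 500 kb. The span rose over the same bins, from a median of 4602 bp to 10265 bp.

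Members also lay beside each other on opposite strands. Of the 2736 loci, 164 (5.99%, interval 5.13 to 6.95) were overlapped by a member locus on the other strand, against 3.39% of 2210 mouse loci. A start within 1 kb of a member start on the other strand was found at 128 loci (4.68%, 3.92 to 5.54), against 1.72% (1.22 to 2.35) in mouse. The rule removes starts opposite exact matches but not starts opposite other members. A further 49 members (1.15%) started within 1 kb of the opposite-strand start of a gene-linked model that was no exact match.

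Loci were found on all 30 chromosomes, at 0.714 (chromosome 1) to 1.70 (chromosome 18) per Mb, measured up to the last model of each chromosome. This range was narrower than that of genes with an exact match, which ran from 1.64 to 8.29 per Mb. Chromosome 18, with 7.19 genes per Mb, held 112 loci, and chromosome 19, with the most genes per Mb, held 59 loci, or 0.932 per Mb. Chromosome 24, with 1.83 genes per Mb, held 85 loci, which gave the highest ratio of loci to genes at 0.746, against 0.112 on chromosome 19 and 0.312 over the whole library. The X chromosome held 114 loci (4.17%, interval 3.45 to 4.98) and 3.86% of genes.

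**Figure D3:**
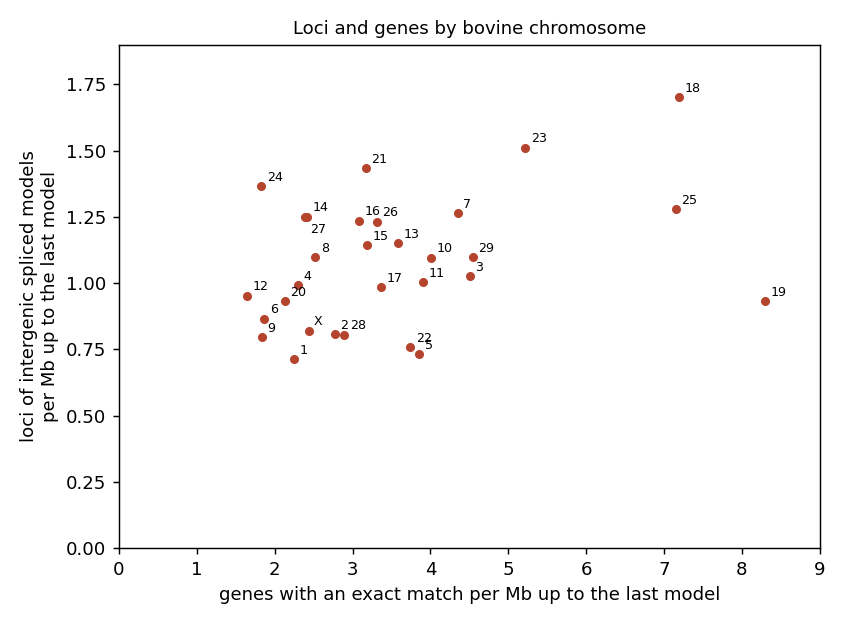
Loci of intergenic spliced models per Mb (vertical) against genes with an exact match per Mb (horizontal) for the 30 bovine chromosomes, each point labelled with its chromosome. Loci range from 0.714 to 1.70 per Mb and genes from 1.64 to 8.29 per Mb.

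The same exon and intron lengths recurred at distant loci. A search for internal exons of one length with an adjacent intron of the same length within 3% found 32 such pairs at 3 or more loci each, and 9 of them at 5 or more, among 2386 distinct internal exons. The largest pair was shared by 15 loci on 11 chromosomes. Mouse models of the same rule gave 7 such pairs, and the largest was shared by 5 loci. The lengths that recurred most in the bovine members belonged to 3 splice structures, carried by 79 members (1.86%) at 35 loci (1.28%) on 20 chromosomes and 1 unplaced sequence. All members at these loci numbered 131. These structures were picked because they recur, so their counts are descriptions.

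The first structure had 18 loci on 14 chromosomes, 11 on the plus strand and 7 on the minus strand. Its centre was an alternative exon with 2 acceptors 28 bp apart and 2 donors 53 bp apart, which gave exons of 121, 149, 174 and 202 bp. After the longer donor came an intron of 1789 to 1836 bp, and after the shorter donor one of 1824 to 1875 bp, both ending at one acceptor. At 7 loci an 87 bp exon lay inside that intron, 1401 to 1464 bp after the donor and 319 to 320 bp before the last acceptor, and 5 loci had models with and without it. A locus counted when it showed at least 2 of the 4 exon forms or at least 2 of the 3 arrangements around the 87 bp exon, with exon lengths within 1 bp.

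The alternative sites were also used within single loci. Both donors were used at 12 of the 18 loci, both acceptors at 9 and all 4 sites at 6. At chr11:61661940-61672417 all 4 forms occurred between the same first exon of 1438 bp and the same last exon of 2441 bp. The locus chr23:44022461-44029926 was 1 bp shorter in this exon and had forms of 120, 173 and 201 bp, each of them in a model with the 87 bp exon. At chr15:51423942-51431396 one model had the 174 bp exon, one the 87 bp exon and one both. A further junction from the first donor straight to the last acceptor, without the alternative exon, was present at 8 loci.

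The flanks of this structure were less uniform than its centre. The 58 models had first exons of 90 to 2728 bp with a median of 548 bp, and 33 of them had exactly 3 exons. Where the alternative exon was the second exon, the first intron ran from 1589 to 4951 bp with a median of 4019 bp. The last exon ran from 425 to 3875 bp. All models of a locus had 1 start at 17 of the 18 loci. The distance to the nearest gene ranged from 6.35 kb (LRIF1, at chr3:32434358-32444283) to 757 kb (PI15, at chr14:38942200-38953108), with a median of 72.1 kb.

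**Figure D4:**
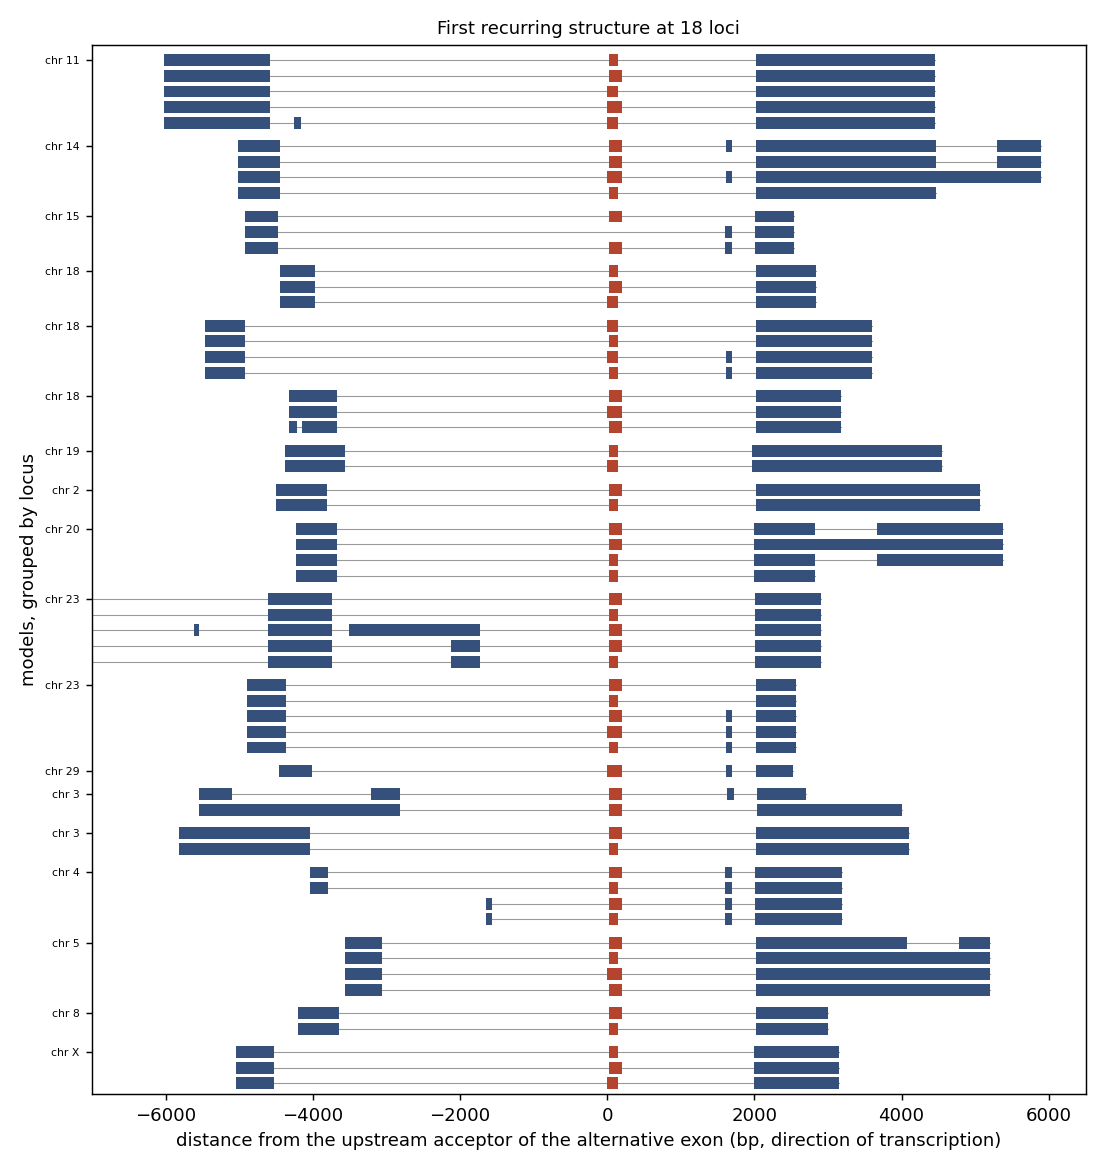
Exon maps of the models at the 18 loci of the first recurring structure, grouped by locus and labelled by chromosome, aligned at the upstream acceptor of the alternative exon (red), in bp along the direction of transcription; blue boxes are other exons and grey lines introns, and 5 models on chromosome 23 continue beyond the left edge. Through the alignment and the lengths by which loci were chosen, the alternative exon and the next shared acceptor stand in the same places at all 18 loci. First exons start at different distances.

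In annotated genes these lengths rarely stood together. Of 76 distinct internal exons of members with one of the 4 lengths, 39 (51.3%, interval 39.6 to 63.0) were followed by the intron of the structure, against 3.62% of 1021 such exons in exact matches. Of 22 exons of 87 bp in members, 10 (45.5%) were followed by the short intron, against 0.947% of 528. By the rule of 2 forms or arrangements, 2 of 8223 loci of exact matches were counted. They were CNOT10 and SPARC, both in models of 10 or more exons. Of 8908 loci of other sense models, 4 were counted: IPO5, LOC613444, CNOT10 and MYO5B. The models in LOC613444 had 6 or 7 exons. The rule did not require the forms to overlap, and in CNOT10, SPARC, IPO5 and MYO5B they were separate exons of 1 model. No mouse locus of the rule was counted. With at least 1 arrangement the counts were 33 member loci (1.21%), the 18 among them, and 117 gene loci (1.42%). Per locus, at least 1 arrangement was thus no more frequent in members. Loci of exact matches had more exons to match, with 62010 distinct internal exons against 2386 in members, so these shares per locus are not on equal terms. The lengths and windows were taken from the members, so the higher member shares above were favoured in advance and are descriptions. One intronic locus outside the members had the structure too: in PGM5, at chr8:44570510-44579168 on the minus strand, 4 models with class code i carried exons of 121, 149, 174 and 87 bp.

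The second structure had 9 loci on 7 chromosomes, 3 of them on X. A first exon of 253 to 1134 bp (median 279 bp) was followed by an intron of 999 to 1021 bp and a second exon of 37 or 170 bp, and all 11 models had 3 exons. Both second exons occurred at 2 loci, chr21:639922-658765 and chrX:43623052-43628963, from the same acceptor, so that their donors lay 133 bp apart. An exon of 122 bp after an intron of 1013 to 1022 bp also recurred, at 3 loci on 3 chromosomes. It was the second exon of further models at chr8:76136775-76145949 and chrX:43623052-43628963, and models with it were not counted in the structure. The last exon was not fixed, at 974 to 4276 bp. At 2 loci, chr8:76136775-76145949 and chrX:35634288-35642551, another model joined the first donor to the last acceptor across 6042 and 6023 bp. In members, 12 of 18 distinct internal exons of 37 or 170 bp (66.7%, interval 41.0 to 86.7) were preceded by this intron, against 1.94% of 310 in exact matches. These lengths were also taken from the members, so that share was favoured in advance. The closest gene distances were 0.385 kb at chrX:92135179-92141039 (LOC101907518), 3.25 kb at chr2:129042778-129053179 (FUCA1, a lysosomal fucosidase) and 7.98 kb at chr7:40552844-40559370 (ZNF496). Outside the members, a 37 bp second exon after a first intron of that length within 3% stood in intronic models in LOC521568 and PPEF1. It also stood in gene models, 1 exact match, of GLYR1, and other sense models of GLYR1 and MPP5.

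The third structure was the only group of 2-exon members in which intron and last exon recurred within 1% at more than 3 loci. A first exon of 301 to 370 bp was joined across 6030 to 6062 bp to a last exon of at least 2212 bp, which measured 2212 to 2223 bp in 7 of 10 models. It had 8 loci on 7 chromosomes and 1 unplaced sequence, 7 of them on the minus strand. Models with 2 exons made up 8 of the 10, and at chr14:25803301-25812053 and chr22:444212-452817 a second model held a 78 bp exon 214 bp before the last one. The gap from the first donor to the last acceptor had a median of 6054 bp. The longest last exon, 3317 bp, was at chr18:59554804-59564498, 4.08 kb from LOC100848077. No exact match and no mouse model of the rule had this structure, while 1 other sense model did, in BMP15, an oocyte growth factor gene on X. An intronic model in LOC101907335, at chr5:101921607-101930322 on the minus strand, had it too, and in both the distance lay within 1% of the range above. In mouse the same search found a group of 5 loci. Its introns measured 415 to 418 bp and its last exons 825 to 835 bp. Recurring 2-exon structures were thus present in both species. In the bovine members, some lengths also met those of the structure with exons of 37 or 170 bp. At chr14:25803301-25812053 a model with exons of 348 and 232 bp had an intron of 1019 bp, within its 999 to 1021 bp. Its junctions of 6042 and 6023 bp on chromosomes 8 and X lay within 1% of 6030 to 6062 bp. They joined exons of 1134 and 1999 bp and of 253 and 1988 bp, outside the exon lengths given above. Whether these structures are related was not tested.

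**Figure D5:**
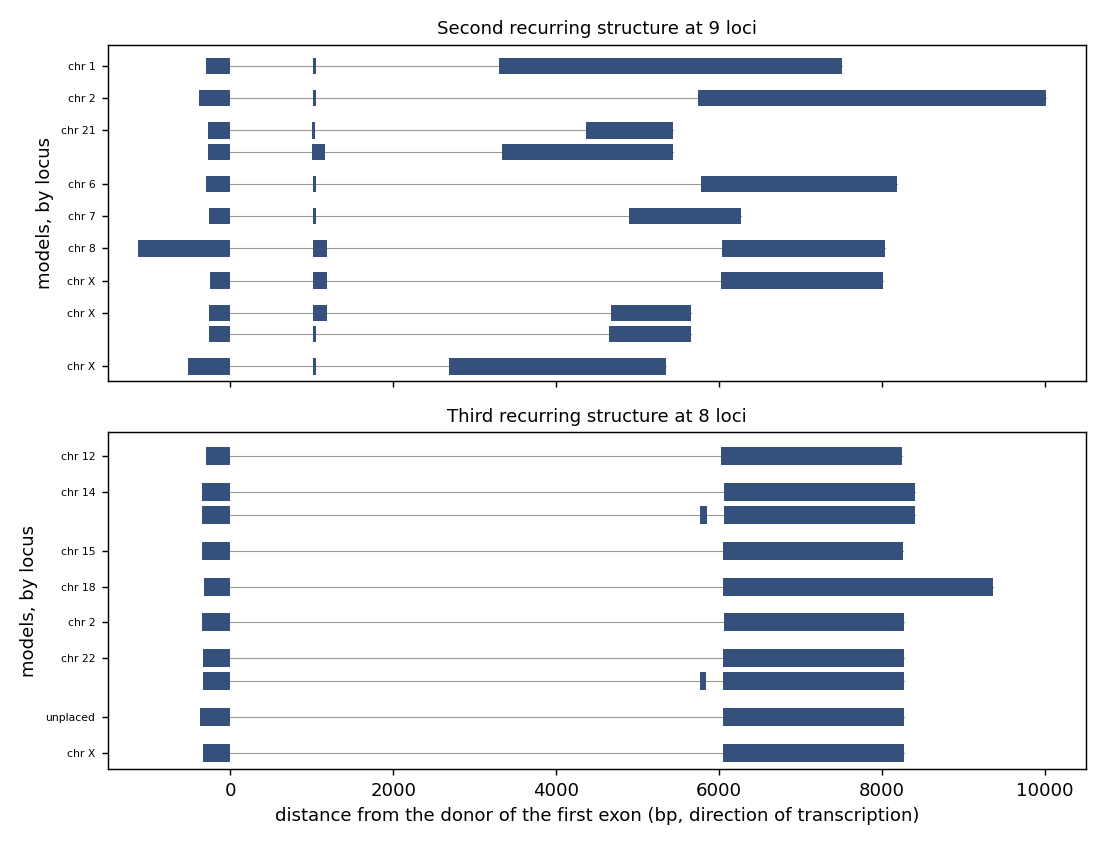
Exon maps of the second recurring structure (9 loci, top) and the third (8 loci, bottom), grouped by locus and labelled by chromosome, aligned at the donor of the first exon, in bp along the direction of transcription; boxes are exons and lines introns. The second exon starts about 1000 bp after the donor at all 9 loci of the second structure, and the last exon starts 6030 to 6062 bp after it at all 8 loci of the third. Loci were chosen by these distances.

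Some members carried runs of exon lengths that also stand in genes. How often such runs match without a relation was not tested. Among the 188 loci with 3 or more internal exons in a row, 9 (4.79%, interval 2.21 to 8.89) had a run of 3 internal exon lengths identical to a run in an exact match, against 2 of 141 mouse loci (1.42%, 0.172 to 5.03). At 5 of the 9 the gene lay within 500 kb on the same chromosome. At the other 4 loci, whose runs matched STRN, MCM6, ZNF568 and LOC783508, the gene with the run was not on the same chromosome.

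The longest shared runs were those of TRIM77, a gene of the tripartite motif family of ubiquitin ligases, on chromosome 29. Its exact match had exons of 138, 415, 96, 231, 23, 98 and 720 bp. At chr29:5472287-5482611, 261 kb away on the same strand, 1 member had exons of 177, 415, 96, 231, 23, 98 and 701 bp, and all 5 members held the run of 231, 23 and 98 bp. At chr29:5654392-5668796 on the opposite strand, 443 kb from TRIM77, 1 of 3 members had exons of 84, 406, 96, 231, 23, 98 and 1306 bp. Both loci belonged to one of the 3 densest groups of members, chr29:4774981-5742189, with 10 loci and 19 members around TRIM77, TRIM48, NAALAD2 and CHORDC1. The run of 96, 231 and 23 bp stood in exact matches of 7 genes, among them TRIM21, TRIM27, TRIM41 and TRIM6. The run of 231, 23 and 98 bp stood in TRIM77 alone.

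The locus with most members shared exon lengths with BOLA, a bovine major histocompatibility complex class I gene, a type that encodes the heavy chain that presents peptides to T cells. Its 10 models lay on the minus strand at chr23:28523751-28528137, with 1 start, 1 end, 6 to 10 exons and 1078 to 2907 bp of spliced length. Exons of 105, 33 and 48 bp followed each other in 7 of them, and 8 held an exon of 277 bp. An exact match of BOLA, 192 kb away on the same strand, had exons of 94, 270, 276, 276, 105, 33, 48 and 310 bp, and no other gene with an exact match had the run of 105, 33 and 48 bp. The models at this locus also held exons of 401, 502 and 990 bp, which the BOLA model lacks. LOC615278, the nearest gene, was 55.8 kb away.

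The adjacent internal exons shared by most genes were 127 and 96 bp, found in exact matches of 42 genes, 28 of them named ZNF or ZFP, the zinc finger genes that often carry a KRAB repressor domain. In members this pair occurred at 3 loci. They were chr13:75208934-75221799, 78.6 kb from ELMO2, chr18:60144943-60155034, 20.7 kb from LOC101904879, and chr7:13566887-13589207, 20.5 kb from ZNF317. At chr22:13360046-13372690, 1 of 3 members carried 84, 127 and 105 bp, a run found in ZNF621, 23.6 kb away.

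The other dense groups within 1 Mb each held 10 loci, where the median window that began at a locus held 2. One, chr27:6166182-7119531, had 22 members and 5 genes, with DEFB1, a beta-defensin, among them. The other, chr18:63570158-64566782, had 16 members among genes that include DUXA, a double homeobox gene known from human genome activation, AURKC, ZNF304 and ZNF470. The first 8 of its loci lay between 63570158 and 63679855, around ZSCAN5B.

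Genes of activation, lineage and the oocyte were set beside their neighbours. A member locus lay within 50 kb of 12.9% of all 8760 genes with an exact match. The count was 2 of 6 found genes of the activation list, 4 of 10 of the lineage and pluripotency list, 7 of 25 of the maternal oocyte list and 2 of 23 of the list for silencing of repeats and DNA methylation. KLF17 and DPPA3 each stand in 2 lists, and with 6 to 25 found genes per list the counts are given as descriptions.

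ZSCAN5B, a zinc finger gene with a SCAN domain, had the most neighbours. Its exact match on the minus strand of chromosome 18 had exons of 403, 207, 151 and 999 bp. A total of 6 member loci lay within 50 kb on either side and both strands. The one 9.25 kb away at chr18:63572367-63576967 had exons of 619, 487, 207, 154 and 1088 bp, and 7 members at chr18:63624257-63648805 had up to 5 exons, such as 141, 506, 207, 142 and 1666 bp. A chain of 5 exons was found at 3 loci of this group, among them chr18:63613452-63617925, 23.7 kb from the gene. The other 3 had 2-exon members, and those at chr18:63570158-63572124 and chr18:63605793-63608125 shared a first exon of 143 bp.

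KLF17, a Krüppel-like factor of the early embryo, had 3 member loci on its 3' side. Models at chr3:101880764-101889411 and chr3:101911443-101923617 ran on the opposite strand, 46.2 and 12.01 kb away, with up to 5 and 6 exons, and a 2-exon model at chr3:101910386-101911091 ran on the same strand, 24.5 kb away. NANOG, a core pluripotency factor, and DPPA3, a maternal factor that protects DNA methylation, lie near each other on chromosome 5 on the plus strand. Between them stood 2 member loci on the same strand: chr5:101375454-101382689, with models of 2 and 3 exons, and chr5:101388491-101394173, a 5-exon model of 1818 bp that ended 18.6 kb before NANOG. SALL4, a zinc finger factor of pluripotent cells, had a 2-exon member on the opposite strand 15.3 kb upstream, at chr13:79598762-79600779.

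Among oocyte genes, LHX8, a LIM homeobox factor of oocyte differentiation, had the closest neighbour. There, 6 members on the opposite strand at chr3:69664058-69668830 began 1.79 to 2.86 kb from its 5' side, beyond the distance of the rule. They used first exons of 87 to 583 bp and all ended in an exon of 420 bp, so this locus had many starts and 1 end, unlike most. OOEP, a subunit of the subcortical maternal complex, had a same-strand member 3.40 kb upstream at chr9:12769927-12777196 and an opposite-strand one 29.8 kb downstream at chr9:12734445-12735503. OOSP2, an oocyte secreted protein, had 2 members of 6 exons 9.33 kb downstream on the same strand, at chr15:83112588-83126050. NLRP9 had a 2-exon member 38.0 kb upstream at chr18:61834522-61839565, and the zona pellucida genes ZP3 and ZP4 had same-strand members 41.4 kb upstream at chr25:34402902-34404804 and 39.3 kb downstream at chr28:10549200-10574978.

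In the silencing list, HDAC2, a histone deacetylase, had a 4-exon member of 915 bp on the same strand, 4.41 kb upstream at chr9:36424388-36445214. CBX5, the heterochromatin protein HP1 alpha, had a 2-exon member on the opposite strand 32.1 kb upstream, at chr5:25751988-25754078.

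As counted above, the extremes in exons, spliced length and span lay outside the recurring structures except in 1 case. Some of the longest spliced members still shared lengths with 1 of the structures, as given below. The locus with 16 exons held a single arrangement of the first structure. So did chr4:1099350-1108146, among the loci farthest from a gene. The most exons, 17, were joined at chr14:16489736-16517924 on the plus strand, 9.89 kb from ATAD2, in a spliced model of 4294 bp. Next came 16 exons at chr25:26839293-26860828, 0.384 kb from TMEM265, 13 at chr3:51414006-51443211, 41.6 kb from EPHX4, and 10 at chr5:9954593-9975696, 300 kb from MYF6, at chr23:28523751-28528137 and at chr15:21761279-21774474. At the MYF6 locus all 6 members had 9 or 10 exons with 1 start and 1 end, and they differed by 3 pairings of the first 2 exons and by an intron within a 593 bp exon.

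The longest spliced member measured 15110 bp at chr2:48622198-48670993, 345 kb from ORC4, as 2 exons with a last exon of 13763 bp. A locus on the opposite strand, chr2:48662976-48672141, overlapped it and held the fourth longest at 8916 bp. The second, 9385 bp, was a model at the FUCA1 locus of the second recurring structure, the third, 9128 bp, lay at chr2:8640004-8650151, and the fifth, 6913 bp, at chrX:48248232-48256163. The models of 9385, 9128 and 6913 bp had first exons of 389, 1128 and 274 bp and introns of 1017, 1020 and 1019 bp. These lay within the 253 to 1134 bp and 999 to 1021 bp of the structure with exons of 37 or 170 bp. The models had 2 exons and lacked those of 37 or 170 bp. The models of 15110 and 8916 bp had introns of 3578 and 250 bp, outside that range. Whether any of them is related to the structure was not tested. The longest span, 260805 bp, was at chr10:93190226-93451030, 367 kb from SEL1L. It was followed by chr21:53877324-54094621, chr12:48849456-49048773, chr7:56076530-56270603 and chr8:95887391-96077952, with 217298, 199318, 194074 and 190562 bp, each over 300 kb from a gene.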

How the data were processed

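RNA of both libraries was made into cDNA by PCR and read on a nanopore sequencer, per the labels' protocols. Each library has 1 GTF of StringTie models deposited by the authors, per the files' source column, with exon positions, class code, locus, start group and closest gene. The unit is a position in bp. The builds are bosTau9 and mm10, per the submitters' processing notes (aligner, tool versions, filters: not given in the sources used here). The files hold no counts or coverage, so depth is unknown and no filter on support was applied.

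Members were found with Python and numpy, and intervals with scipy 1.17.1 (exact, 95%; medians by order statistics). Distances run between the nearest positions of 2 spans. Code was tested on simulated models. Recurring structures took their lengths from the search itself, with windows of 3% around the introns found (1% for the third). The members, gene lists and structures were chosen with earlier results of these data known. Named loci are the 10 with most members (8 loci tied at 8 members, so all 12 were described), the 5 highest in exons (6 with a tie), spliced length, span and distance from a gene, those within 50 kb of a listed gene, the 3 densest groups within 1 Mb and the models next to the 1000 bp threshold. Recurring structures and loci with gene-like exon lengths were chosen after their values were seen. Planned sequence features were not made, since no bovine sequence was used here.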

Additional observations from a re-analysis of the deposited data

How the results depend on the processing

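No paired analysis was possible because each species has 1 library and the labels carry no replicate numbers. The number of members stayed within 1.5 times of 4255 under distances of 500 to 10000 bp (4284 to 4138), starts of all sense class codes, introns of at least 50 bp and a further distance from same-strand genes, and fell to 2151 with at least 3 exons. With 1 model per locus the median spliced length was 1030 bp, the median span 6014 bp and the share with 2 exons 53.3%, each outside the interval of the main value. Against all sense class codes the median distance to a gene was 74.6 kb, and the share with a same-strand gene end within 10 kb upstream was 4.72% in place of 3.17%. That share was 1.504% within 5 kb and 5.78% within 20 kb. The median first exon was 214 bp with 1 model per distinct start. Genes with a member nearby made up 6.30% within 20 kb and 21.0% within 100 kb, against 12.9% within 50 kb. Alternatives for the recurring structures were chosen after seeing the data: any 1 arrangement gave 33 loci of the first structure in place of 18, and introns within 1% gave 16 recurring pairs in place of 32. The exon minimum, the distances and the tolerances move these values by construction; for 1 model per locus or start and for the sense class codes the cause was not tested. Of 34 alternatives in all, the other 21 left counts within 1.5 times and shares and medians within their interval, among them the second structure with the shorter exon alone and the number of loci by overlap of spans or exons.

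With 1 library per species, no difference has a replicate check. Depth is unknown, so an exon form without a model at a locus was not shown to be absent there. Exact matches stand in for the annotation: a gene without one is not counted as a neighbour. Equal exon lengths describe structure only, since no bovine sequence or repeat annotation was used here.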
